A study of Mus musculus with 6 samples.

Results

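The metabotropic glutamate receptors are G protein-coupled receptors through which glutamate tunes synapses slowly, beside the fast currents of its ion channel receptors. Group I receptors couple to Gq proteins, which activate phospholipase C and release calcium from internal stores. Group II and group III receptors couple to Gi/o proteins, which lower adenylyl cyclase activity and, at nerve endings, restrain transmitter release. The genes described here were Grm5 of group I, Grm2 and Grm3 of group II, and Grm4, Grm7 and Grm8 of group III, chosen by symbol. They are 6 of the 52390 genes listed in the count table, and all 6 had enough counts to be among the 21844 genes tested.

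The question was whether their mRNA levels differed in the brain of mice that overexpressed AP1AR-DT, a human long non-coding RNA named AC109347.1 in the sample labels. All 6 animals were male C57BL/6 mice 8 weeks old when a recombinant adeno-associated virus was injected into their medial prefrontal cortex (mPFC). In 3 AP1AR-DT OE mice AP1AR-DT was driven by the neuronal promoter of human synapsin I, and the 3 control mice received an empty vector. The vector's EGFP was driven by a CMV promoter. The sequenced tissue is called brain in the labels, mPFC in the study's results and cortical tissue in its methods, and the interval from injection to RNA harvest was not given in the sources used here. The count table of mouse genes does not list AP1AR-DT, so its level could not serve as a check of the labels.

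Library totals ran from 42061721 to 49957663 counts for the control group and from 51374941 to 54668294 for the AP1AR-DT OE group. Control libraries carry the numbers of their mice, whereas the AP1AR-DT OE columns do not show which mouse they belong to and are called OE A, OE B and OE C. Single libraries stood apart in markers of brain regions. The summed level of 9 choroid plexus markers was 4024 normalized CPM (counts set relative to the TMM-scaled total of each library) in control 3 and between 57.1 and 75.7 in the other 5 libraries. For 9 hypothalamic markers it was 663 in control 2 and 6.61 in control 1, and for 5 olfactory bulb markers it was 141 in OE C and between 15.6 and 23.3 in the others. For 10 striatal markers it was 2449 in OE A and 366 in control 2. None of 10 markers of excitatory cortical neurons was at 0 in any library, but their mean log2 level ran from -1.45 in control 2 to 1.26 in OE B, in log2 units from the mean of the 6 libraries. Slc17a7, the vesicular glutamate transporter of cortical excitatory neurons, and Rorb, another of these markers, are named here after their values were seen. Slc17a7 was at 28.2, 3.86 and 233 normalized CPM in control mice and 231, 463 and 87.2 in AP1AR-DT OE mice. Rorb was at 21.6, 31.4 and 41.0 in control mice and 20.8, 20.5 and 22.1 in AP1AR-DT OE mice. With edgeR at P under 0.05 and |Log2FC| above 0.32, 1 of the 10 markers rose and 1 fell. Over all genes tested, 5.1% rose and 7.15% fell.

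The 6 genes are related but distinct in sequence. Over the aligned coding bases, the group III genes were 69.5% to 70.4% identical to each other and Grm2 was 68.8% identical to Grm3, while pairs from different groups were 60.7% to 64.9% identical. The longest exact run shared by any pair of longest transcripts was 27 bases, in the coding sequence of Grm3 and Grm4. The homologous stretch of 51 coding bases around that run lies within 1 exon of a coding transcript in each of the 5 genes given here, and is shown because reads of family members are hardest to tell apart where they share such a run. Lower-case letters are identical to Grm3 and capitals mark differences from it (GENCODE vM21 annotation, GRCm38, each 5′ to 3′ on the strand of its gene).
Grm3, chr5:9511497-9511547, minus strand, exon 4 of 6: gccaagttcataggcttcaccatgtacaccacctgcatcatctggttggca
Grm4, chr17:27434575-27434625, minus strand, exon 9 of 11: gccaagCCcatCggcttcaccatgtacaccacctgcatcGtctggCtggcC
Grm5, chr7:88074811-88074861, plus strand, exon 7 of 9: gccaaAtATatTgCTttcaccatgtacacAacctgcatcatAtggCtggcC
Grm7, chr6:111358988-111359038, plus strand, exon 8 of 11: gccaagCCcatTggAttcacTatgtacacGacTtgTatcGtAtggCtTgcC
Grm8, chr6:27363127-27363177, minus strand, exon 8 of 10: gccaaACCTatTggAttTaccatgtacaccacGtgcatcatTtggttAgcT
Even here Grm4 differed from Grm3 at 6 bases, Grm5 at 10, Grm8 at 11 and Grm7 at 13. The search for shared runs used longest transcripts, and that of Grm8 has 6 exons where its coding transcript has 10. Coding bases of Grm8 outside its longest transcript were not searched.

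The longest transcript of each gene was cut into adjoining blocks of 50 bases, so shared stretches that cross block borders can be missed. No such block of Grm3, Grm4 or Grm5 was found in transcripts of genes other than the receptor genes described here. For Grm2 this held for all but 8 of 94 blocks. Which genes hold such blocks was not recorded, so overlapping genes are given beside the counts. The antisense gene Gm28111, listed at 0 counts in every library, overlaps 470 exon bases of Grm2. For Grm7 no such block was found in all but 1 of 84 cases. The antisense gene Gm20387, which overlaps Grm7, had 63 to 126 counts where Grm7 had 1137 to 1944. Use of strand in the counting is not stated, so reads of Grm7 and Gm20387 over their 130 shared exon bases cannot be told apart. For Grm8 no such block was found in all but 1 of 95 cases. The microRNA gene Mir592, at 0 counts, overlaps 96 exon bases of Grm8.

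None of the 6 receptor genes passed the test for a change with AP1AR-DT overexpression, and in each of them the values of control and AP1AR-DT OE mice overlapped. At the thresholds of P under 0.05 and |Log2FC| above 0.32, edgeR's quasi-likelihood test called 0 of the 6, where it called 12.2% of all genes tested, 5.1% up and 7.15% down. Without the fold threshold it was also 0 of 6 at an unadjusted P under 0.05, against 15.1% of all genes, and DESeq2 and limma-voom gave 0 of 6 as well. At an adjusted P under 0.05 the count was 0 of 6, against 0.0275% of all genes. Groups did not overlap in 22.4% of all genes tested. Log2FC of AP1AR-DT OE over control was below 0 for 5 of the 6 genes, where 48.5% of all genes tested were above 0. The median was -0.15 where that of all genes was -0.014, and the median size was 0.15 against 0.24 over all genes. These sizes depend on the correction used: with the counts corrected for GC content, Log2FC of Grm3, Grm5 and Grm7 was above 0 and that of Grm4 below 0. In RNA from whole tissue, fewer cells of a type and less RNA per cell cannot be told apart.

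**Figure D1:**
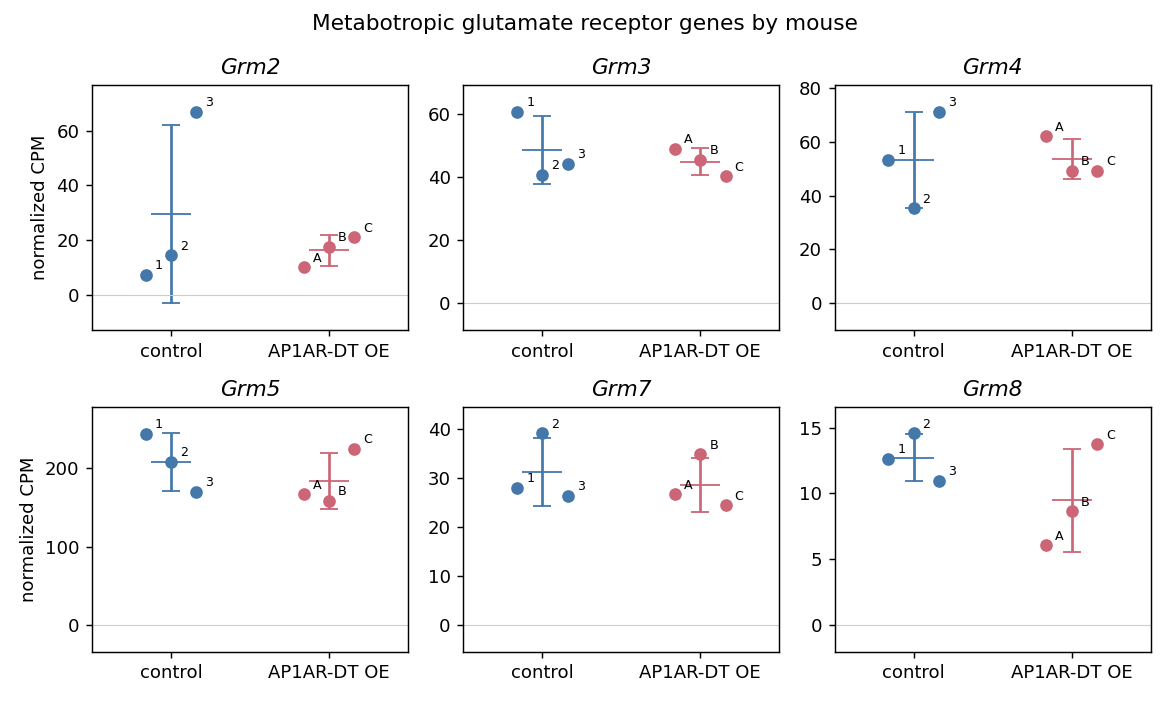
Normalized CPM of each receptor gene (y axis, starting near 0) in each mouse, by group (x axis). Points are single libraries, numbered 1 to 3 for control and A to C for AP1AR-DT OE, horizontal bars are means and error bars SD (n = 3). Grm2 in control 3, at 67.0 normalized CPM, lies far above the other 5 libraries, and the groups overlap in every panel.

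Grm5 (ENSMUSG00000049583, chr7:87584168-88134907, plus strand) encodes the group I receptor of dendritic spines, where it sits at the edge of the postsynaptic density. It measured 244, 208 and 170 normalized CPM in control mice 1 to 3 and 167, 159 and 225 in OE A, OE B and OE C. OE C lay between control 1 and control 2, and the other 2 AP1AR-DT OE libraries lay just below the lowest control. The means were 207 ± 36.9 (SD, n = 3) and 184 ± 36.1 (SD, n = 3). Log2FC was -0.18 (SE 0.179) with a 95% interval of -0.60 to 0.25 (edgeR adjusted P = 0.659, exact permutation P = 0.5). With correction for GC content it was 0.22.

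Grm2 (ENSMUSG00000023192, chr9:106643095-106656082, minus strand) encodes a group II receptor found mostly on axons, where it limits glutamate release. Its levels were 7.30, 14.4 and 67.0 normalized CPM in control mice 1 to 3, from 297, 718 and 3345 counts. They were 10.1, 17.6 and 21.1 in OE A, OE B and OE C. Control 3 was the highest and control 1 the lowest of all 6 libraries, so the AP1AR-DT OE values lay inside the control range. The means were 29.6 ± 32.6 and 16.3 ± 5.63 normalized CPM (SD, n = 3). Log2FC was -0.86 (SE 0.759) with a 95% interval from -2.65 to 0.93 (edgeR adjusted P = 0.604, exact permutation P = 0.9). Its sign rested on control 3: without that library Log2FC was 0.59 (edgeR adjusted P = 0.532).

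The spread of Grm2 between mice of a group was wide for its level. Its biological coefficient of variation was 0.627, at percentile 98.6 of the 3050 genes within 0.5 log2 units of its mean level. Between control mice it ranged over 3.11 log2 units, where the median of those genes was 0.31. Control 3 was also the library highest in the thalamic, hippocampal, choroid plexus, oligodendrocyte and astrocyte lists. The hypothalamic, striatal and olfactory bulb lists were highest in other libraries. The 8 oligodendrocyte markers summed to 11004 normalized CPM in control 3 and to 5212 and 6652 in control 1 and control 2. In AP1AR-DT OE libraries they summed to between 5254 and 5337, and 3 of the 8 passed the thresholds downwards. Summed over 10 thalamic markers, the level was 970 normalized CPM in control 3, 196 and 258 in control 1 and control 2 and between 157 and 225 in the AP1AR-DT OE libraries, with no marker at 0, and 4 of the 10 passed the thresholds downwards. The 5 hippocampal markers summed to 235 in control 3, to 61.6 and 73.2 in the other control mice and to between 64.3 and 80.8 in AP1AR-DT OE mice, with Dsp and Lct at 0 in at least 1 library. Of its 4 markers tested, 1 passed upwards and 1 downwards. Of the choroid plexus markers, summed at 73.6 to 4024 and 57.1 to 75.4, 4 of 7 tested passed downwards, with Kcnj13 and Slc4a5 at 0 in at least 1 library. Over all genes tested, 7.15% passed the thresholds downwards and 5.1% upwards. The part of these lists in the Grm2 values was not tested.

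Grm3 (ENSMUSG00000003974, chr5:9485541-9725170, minus strand), the other group II gene, is made in astrocytes as well as neurons, and its receptor responds to the dipeptide NAAG. It was at 60.7, 40.7 and 44.1 normalized CPM in control mice and 48.9, 45.4 and 40.2 in OE A, OE B and OE C. Control 1 was the highest library and the remaining 5 lay close together. The means were 48.5 ± 10.7 and 44.8 ± 4.38 (SD, n = 3). Log2FC was -0.11 (SE 0.169, the smallest of the 6 genes) with a 95% interval from -0.51 to 0.28, a fold of 0.702 to 1.22 (edgeR adjusted P = 0.776, exact permutation P = 0.8). It was 0.082 without control 1 and 0.14 with correction for GC content. The summed level of 10 astrocyte markers ran from 2437 to 2964 normalized CPM in control mice and from 2252 to 2516 in AP1AR-DT OE mice, with none at 0. Of the 10 markers, 3 passed the thresholds downwards, beside 7.15% of all genes tested.

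**Figure D2:**
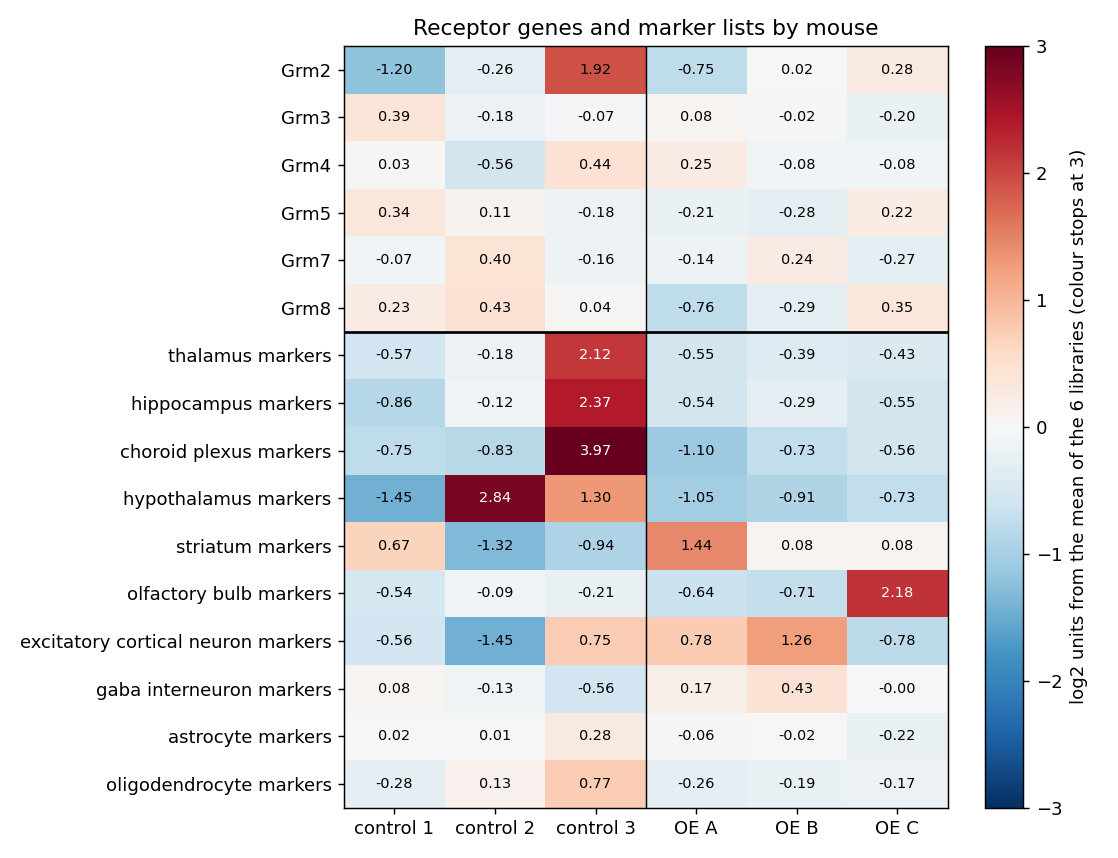
Log2 normalized CPM of the 6 receptor genes (upper rows) and mean log2 level of each marker list (lower rows) in each library (columns), as log2 units from the mean of the 6 libraries (colour and printed value). Grm2 is 1.92 above its mean in control 3, where the thalamic, hippocampal and choroid plexus lists are 2.12, 2.37 and 3.97 above theirs. The oligodendrocyte list is 0.77 above its mean in control 3, and the olfactory bulb list is 2.18 above its mean in OE C.

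Group III receptors act mainly at presynaptic release sites. Grm4 (ENSMUSG00000063239, chr17:27422387-27521403, minus strand) was at 53.4, 35.3 and 71.2 normalized CPM in control mice and 62.2, 49.3 and 49.3 in OE A, OE B and OE C. All 3 AP1AR-DT OE libraries lay between control 2 and control 3. The means, 53.3 ± 17.9 and 53.6 ± 7.45 (SD, n = 3), were nearly the same, with a Log2FC of 0.0070 (SE 0.246) and a 95% interval from -0.57 to 0.59 (edgeR adjusted P = 0.991, exact permutation P = 1). Its sign changed without control 2 (-0.21) and without OE A (-0.11), and with correction for GC content it was -0.082.

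Grm7 (ENSMUSG00000056755, chr6:110645581-111567230, plus strand) encodes a low-affinity receptor anchored in the presynaptic active zone. It had 27.9, 39.0 and 26.3 normalized CPM in control mice and 26.6, 34.8 and 24.4 in OE A, OE B and OE C. Control 2 and OE B were the highest of their groups, and the groups overlapped. Log2FC was -0.12 (SE 0.199) with a 95% interval from -0.59 to 0.35 (edgeR adjusted P = 0.799, exact permutation P = 0.6). It was 0.084 without control 2 and 0.13 with correction for GC content.

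Grm8 (ENSMUSG00000024211, chr6:27275119-28135178, minus strand) encodes a high-affinity receptor of nerve endings. The control mice had 12.6, 14.6 and 11.0 normalized CPM, from 514, 725 and 548 counts. OE A, OE B and OE C had 6.07, 8.63 and 13.7, from 322, 465 and 721 counts. OE A and OE B were below every control, while OE C was above control 1 and control 3. The means were 12.7 ± 1.80 and 9.48 ± 3.91 (SD, n = 3), with a Log2FC of -0.42 (SE 0.295) and a 95% interval from -1.12 to 0.27 (edgeR adjusted P = 0.509, exact permutation P = 0.3). Without OE C, Log2FC was -0.78, and Grm8 passed the thresholds before adjustment but not after it (edgeR adjusted P = 0.210). OE C is the library in which the olfactory bulb list was high, with Tbx21 at 0 in at least 1 library. Of the 5 markers, 1 passed the thresholds upwards, beside 5.1% of all genes tested. Whether the olfactory bulb list bears on Grm8 was not tested. With correction for GC content of the longest transcript Log2FC of Grm8 was -0.035. With the mean GC content over transcripts, an alternative added once the data had been seen, it was -0.13. Log2FC of Grm8 was below 0 in all 15 alternative fits.

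**Figure D3:**
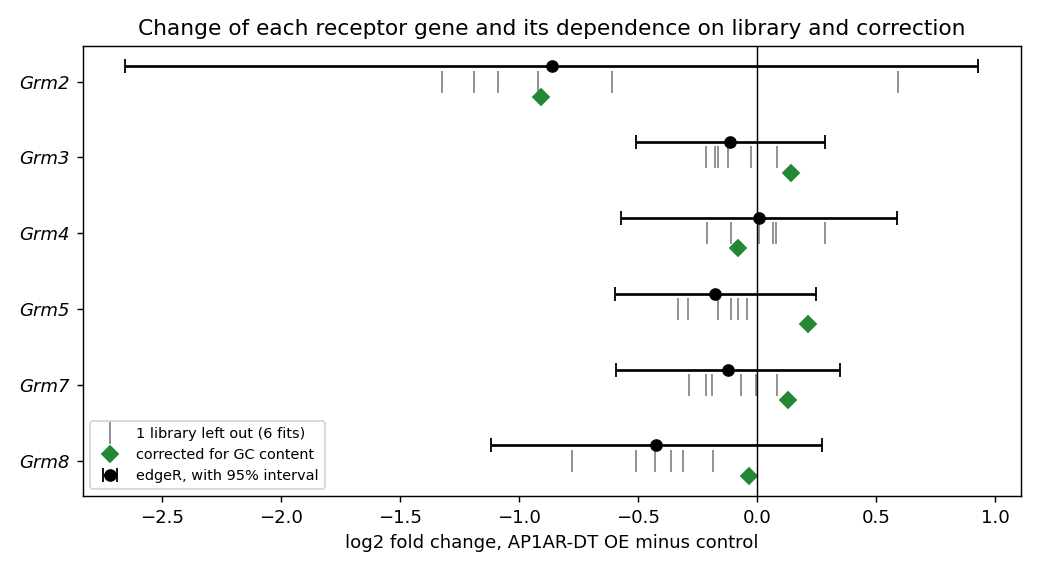
Log2 fold change of each receptor gene, AP1AR-DT OE minus control (x axis), by gene (y axis). Black points with bars are edgeR estimates with 95% intervals, grey ticks the 6 fits with 1 library left out and green diamonds the fit corrected for GC content. Every interval spans 0, and for Grm2 1 tick, the fit without control 3, stands at 0.59, away from the rest.

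GC content of the transcripts is given beside these changes because Log2FC moved with it over all genes. The median Log2FC rose from -0.30 in the decile of genes with the lowest GC content to 0.22 in the decile with the highest. Grm5 and Grm8, at 42.5% and 41.9% GC in the longest transcript, are in decile 2, where the median was -0.21. Their mean GC content over all transcripts of the gene was higher, at 47.9% and 46.5%. The longest transcript of Grm8 has 6 exons, where its coding transcript shown above has 10. Grm3 and Grm7 are in decile 4, where it was -0.093, Grm2 in decile 9 (0.16) and Grm4 in decile 10 (0.22).

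Per length, Grm5 mRNA was the most abundant of the 6. In normalized CPM per kb of the longest transcript, a scale on which genes can be set beside each other, the level over all 6 libraries averaged 24.3 for Grm5 (range 19.7 to 30.3), 15.3 for Grm3 (13.2 to 19.9), 11.6 for Grm4 (7.67 to 15.5), 7.09 for Grm7 (5.78 to 9.27), 4.86 for Grm2 (1.55 to 14.2) and 2.31 for Grm8 (1.27 to 3.03). Neighbours in this order overlapped in range in every case. Within a library, Grm5 was above Grm3 in 6 of 6, and each of the 4 other neighbouring pairs kept its order in 5 of 6. Grm6, the receptor of retinal ON bipolar cells, had 4 counts in OE B and 0 in each of the other libraries, and was not tested. The order rests in part on the transcript length used: with the mean length over transcripts Grm5 was at 66.3, Grm4 at 19.3 and above Grm3, which stayed at 15.3, Grm7 at 12.1, Grm2 at 9.70 and Grm8 at 4.11. With the merged exons of each gene Grm8 was at 1.12, and Grm5 was the highest with each of these lengths.

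With the longest transcript as length, Grm5 took 28.6% to 43.0% of the summed per-kb level of the 6 genes, the group II genes together 26.3% to 38.9% and the group III genes 28.7% to 35.1%. With the mean transcript length the share of Grm5 was 40.9% to 58.7%, and with merged exons 26.7% to 41.3%, both computed once the data had been seen. With the longest transcript, the share of Grm2 was 19.3% in control 3 and between 2.13% and 6.90% in the other 5 libraries. The summed level itself was 59.1 to 73.8 normalized CPM per kb. Ratios between 2 of the genes within a library do not depend on the library's scaling. Of the 15 pairs, 0 had ratios that did not overlap between the groups, and the smallest exact permutation P was 0.3, which became 1 after Benjamini-Hochberg adjustment over the 15 pairs. The difference of largest size was that of Grm4 over Grm8, 0.55 log2 units higher in AP1AR-DT OE mice.

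**Figure D4:**
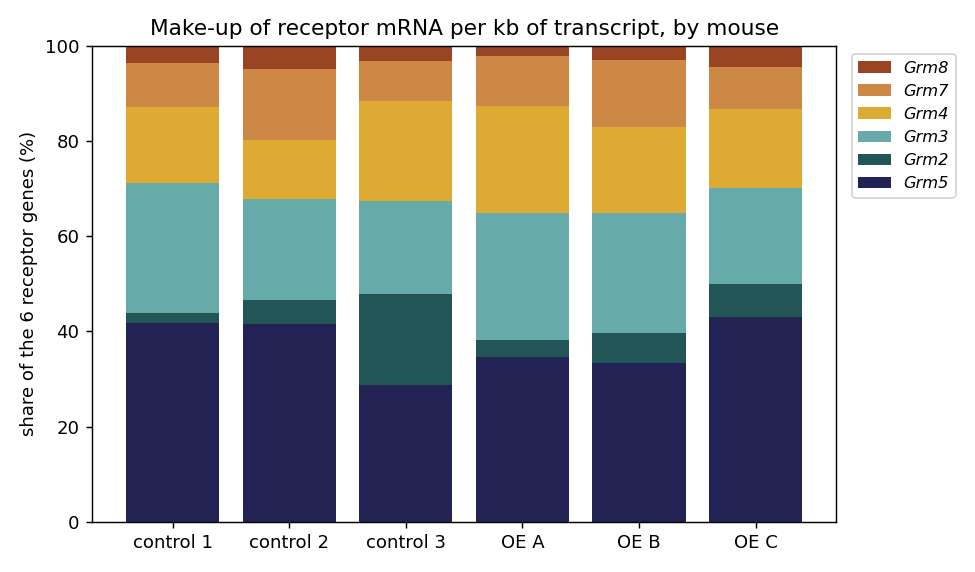
Share of each receptor gene in the summed level of the 6 genes per kb of longest transcript (y axis, percent) in each library (x axis). Stacked segments are genes, with Grm5 at the base, the group II genes above it and the group III genes at the top. The Grm2 segment is 19.3% in control 3 and at most 6.90% in the other libraries.

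By root-mean-square distance of log2 normalized CPM, centred over the 6 libraries, the protein-coding genes nearest to Grm2 among 15567 were Scube1 (0.290) and Lef1 (0.292), against a deviation of Grm2 itself of 0.985. Lef1, a transcription factor of Wnt signaling and one of the thalamic markers, had 1.65, 3.23 and 22.4 normalized CPM in control mice and 3.04, 4.90 and 3.54 in AP1AR-DT OE mice, so it too was highest in control 3. Nearest to Grm8 were Trhde (0.0695), a peptidase that inactivates thyrotropin-releasing hormone, and Lrch3 (0.106). Trhde had 23.6, 26.8 and 19.3 normalized CPM in control mice and 12.6, 17.3 and 26.8 in OE A, OE B and OE C, low in the same 2 libraries as Grm8. For Grm5 they were Prdm11 (0.0463) and Rpl17 (0.0609), and for Grm3 Ntan1 (0.0458) and Xkr5 (0.0584). Rpl17 was low, at 1.04 to 1.75 normalized CPM, and Xkr5 was at 0.0953 to 0.467, below the 0.5 added before the log. The genes nearest to Grm4 were E230025N22Rik and Tmem79, and to Grm7 Gm10300 and Il3ra, all below 2 normalized CPM. These distances describe 6 points and carry no test. The genes were chosen for likeness over these same libraries, so the highs and lows that Lef1 and Trhde share with the receptor genes follow from that choice.

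The genes that act with the receptors were taken from lists by role, written with earlier results of these data known. Of 78 genes, 77 were listed under their symbol and 76 tested. At the thresholds of P under 0.05 and |Log2FC| above 0.32, 4 rose and 4 fell, 8 of 76 or 10.5%, beside 12.2% of all genes tested. The groups did not overlap in 12 of the 76, beside 22.4% of all genes. The smallest adjusted P among them was 0.295 (edgeR), so in this fit the rises and falls given here hold before adjustment only. The median Log2FC was 0.032, and 45 of the 76 were above 0. Over all genes tested the median was -0.014, and 48.5% were above 0.

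**Figure D5:**
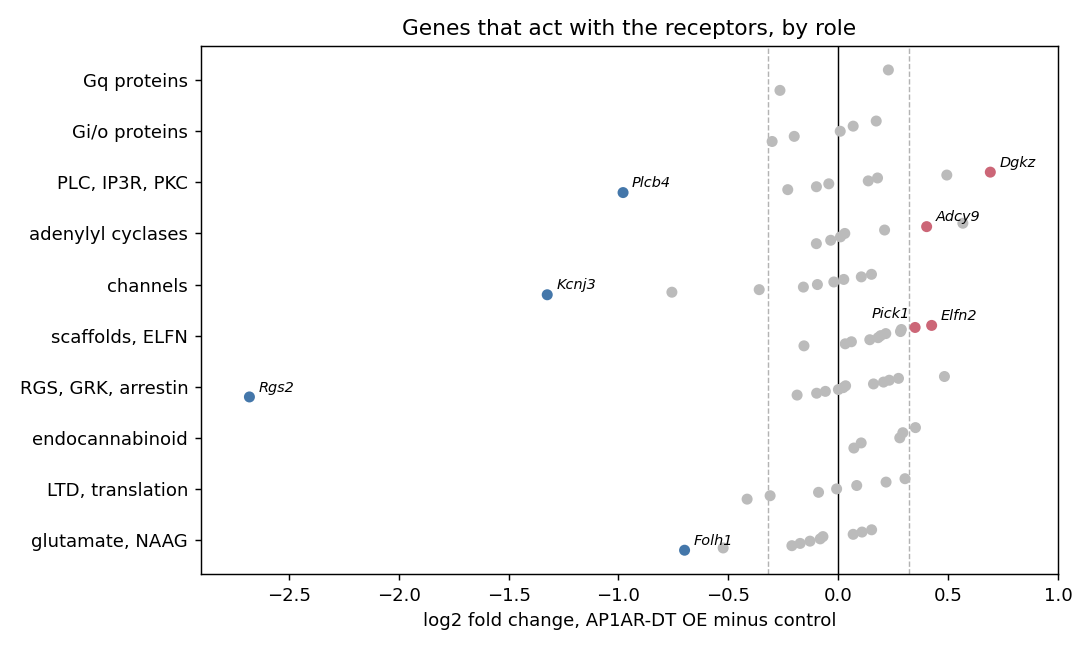
Log2 fold change of the 76 genes tested, AP1AR-DT OE minus control (x axis), by role (y axis). Red points rose and blue points fell at the thresholds, grey points did not pass, and dashed lines mark 0.32 in either direction. The 8 called genes are spread over 6 roles, from Rgs2 at -2.68 to Dgkz at 0.69.

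Among the G proteins, 0 of 2 Gq genes and 0 of 5 Gi/o genes passed, and none had an unadjusted P under 0.05. On the group I side, 2 of 8 genes for phospholipase C, the IP3 receptor and protein kinase C signaling passed (25%). Over all genes tested the share was 12.2%. Plcb4, a phospholipase C activated by Gq, fell, with 35.6, 51.0 and 88.6 normalized CPM in control mice and 23.9, 24.6 and 40.5 in AP1AR-DT OE mice. The groups overlapped by 1 library on each side and Log2FC was -0.98 (edgeR adjusted P = 0.300). Dgkz, a kinase that removes the lipid messenger diacylglycerol, rose by 0.69 (edgeR adjusted P = 0.321), with 101, 61.7 and 101 against 145, 186 and 94.9 normalized CPM, where OE C lay within the control range. Plcb4 missed the thresholds with correction for GC content or length and without control 3, OE A or OE B, and Dgkz without control 1, control 2, OE A or OE B.

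On the side of the Gi/o-coupled receptors, 1 of 7 adenylyl cyclases (14.3%) and 1 of 9 channels (11.1%) passed. These shares were near the 12.2% of all genes tested. Adcy9, an adenylyl cyclase, rose from 24.6, 21.7 and 25.4 normalized CPM to 32.3, 34.6 and 27.8, with every AP1AR-DT OE library above every control and a Log2FC of 0.40 (edgeR adjusted P = 0.295). Kcnj3, a subunit of the potassium channel opened by Gi/o proteins, fell from 55.1, 56.6 and 86.5 normalized CPM to 44.3, 14.6 and 20.4. Its groups did not overlap either, and Log2FC was -1.32 (edgeR adjusted P = 0.295). Adcy9 missed the thresholds without OE B, and Kcnj3 without OE C and with correction for the mean GC content over transcripts, an alternative added once the data had been seen.

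Of 11 genes for scaffolds and synaptic partners, 2 rose (18.2%), beside 5.1% of all genes tested. Log2FC was above 0 for 10 of the 11, with a median of 0.19, where 48.5% of all genes tested were above 0. Log2FC moved with GC content over all genes, and the GC content of these 11 was not compared. Elfn2, a postsynaptic adhesion protein that binds group III receptors across the synapse, rose from 198, 173 and 153 normalized CPM to 229, 235 and 240. The highest control was below the lowest AP1AR-DT OE library, Log2FC was 0.42 (edgeR adjusted P = 0.295), and Elfn2 passed the thresholds in all 15 alternative fits. Pick1, a scaffold that binds the receptor encoded by Grm7, rose from 24.3, 21.0 and 24.5 to 32.7, 29.1 and 27.1 normalized CPM. Its groups did not overlap, Log2FC was 0.35 (edgeR adjusted P = 0.296), and it missed the thresholds without control 2 or OE A. The Homer and Shank genes, whose products link Grm5's receptor to the postsynaptic density, were all among the 9 that did not pass.

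Of 12 regulators of receptor and G protein activity, 1 fell (8.33%), beside 7.15% of all genes tested. Rgs2, which shortens Gq signaling, had 90.5, 79.1 and 3.84 normalized CPM in control mice and 9.63, 6.42 and 11.0 in OE A, OE B and OE C. Control 3 was the lowest of all 6 libraries and the other 2 controls were far above the rest. Log2FC was -2.68 (edgeR adjusted P = 0.296), and -3.22 without control 3 (edgeR unadjusted P = 6.08e-06). Over the 15 alternative fits, with edgeR, DESeq2 or limma-voom, the adjusted P of Rgs2 ran from 0.0195 to 0.661. Rgs2 missed the thresholds under limma-voom and without any 1 of the other 5 libraries.

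Of 10 genes of glutamate and NAAG handling, 1 fell (10%), beside 7.15% of all genes tested. Folh1, the astrocytic peptidase that breaks down NAAG, the ligand of Grm3's receptor, had 5.33, 5.96 and 4.72 normalized CPM in control mice and 3.47, 3.04 and 3.35 in AP1AR-DT OE mice. Every control was above every AP1AR-DT OE library and Log2FC was -0.70 (edgeR adjusted P = 0.295). With correction for GC content it was -0.24 and missed the thresholds. None of 5 endocannabinoid genes and none of 7 genes of group I-dependent depression and local translation passed, where Daglb and Map1b missed only the fold threshold, with a Log2FC of 0.28 and -0.31. All 5 endocannabinoid genes had a Log2FC above 0, with a median of 0.28, where 48.5% of all genes tested were above 0. Their GC content was not compared.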

How the data were processed

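The authors prepared TruSeq libraries from total RNA and, per the study's methods, aligned reads with Bowtie2 (default settings, GRCm38) and took counts per gene from StringTie coverage over GENCODE genes. The deposited whole-number counts, without normalization, were used here. The submitters' processing notes name instead TopHat2 2.0.4, SAMtools, HTSeq, Cuffdiff, edgeR 2.6.12 and mm9, and the difference could not be resolved. Bowtie2 does not split reads at introns, so reads across exon junctions can be lost. The authors' columns of mean, fold change and P-values in the same table were not used.

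Groups came from the sample labels. Counts were tested in R 4.3.3 with edgeR 4.0.16 (filterByExpr, TMM factors, quasi-likelihood F-test, two-sided, Benjamini-Hochberg over all 21844 genes tested), with 3 libraries per group and no covariate. The common biological coefficient of variation was 0.313. Exact permutation tests (two-sided) used log2 of normalized CPM plus 0.5, and 20 splits cannot give P below 0.1. Intervals are at 95%. Alternatives were DESeq2 1.42.0, its size factors, library totals, limma-voom (limma 3.58.1), no filter, at least 10 counts in every library, GC content and length of the longest transcript (spline curves with 5 degrees of freedom over 14001 genes) and leaving out each library. The fits were tested on simulated data. Marker lists were summarised by summed normalized CPM and mean log2 level. Coordinates and sequences are from GENCODE vM21 (GRCm38), where 52081 of the 52390 identifiers were found. Python 3.11.15 with pandas 2.3.3 and scipy 1.17.1 made the tables, and matplotlib 3.10.9 drew the plots.

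The members, the lists and the rules for naming genes were chosen with earlier results of these data known. Named genes are the receptor genes, the called genes of each list (at most 3 by P), the 2 nearest genes of each receptor gene and markers at 0 in a library. 1 gene and 1 sequence are not reported here.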

Additional observations from a re-analysis of the deposited data

How the results depend on the processing

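Over the 15 alternatives the count of receptor genes past the thresholds was 0, except with 1 library left out, where it ranged from 0 to 1, the 1 being Grm8 without OE C. Log2FC of Grm8 was below 0 in all 15, while the sign of each other receptor gene changed in at least 1. With correction for GC content it was 0.14 for Grm3, -0.082 for Grm4, 0.22 for Grm5 and 0.13 for Grm7. With correction for length it was 0.058 for Grm3, 0.13 for Grm5 and 0.082 for Grm7. With correction for mean GC content, an alternative added once the data had been seen, it was 0.18 for Grm3, -0.032 for Grm4, 0.090 for Grm5 and 0.20 for Grm7. With 1 library left out Log2FC ranged from -1.32 to 0.59 for Grm2, from -0.21 to 0.082 for Grm3, from -0.21 to 0.29 for Grm4 and from -0.29 to 0.084 for Grm7. Over all genes, those past the thresholds numbered 2675, and 1430 to 3508 with 1 library left out. Genes with an adjusted P under 0.05 numbered 6 with edgeR, 302 with DESeq2, 3 with each of the GC, length and mean GC corrections, and 0 to 13 with 1 library left out. The genes acting with the receptors past the thresholds numbered 8, 13 with correction for GC content, 26 with correction for length, and 5 to 13 with 1 library left out. The cause of these shifts was not tested. No paired analysis was possible because the control mice are numbered 1 to 3 and the AP1AR-DT OE mice 3 to 5, so only 1 number is shared, and the columns of the latter do not name the mouse. With 3 mice per group, the widest interval was that of Grm2 and the narrowest that of Grm3.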

Other observations

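Some genes of the receptor lists that did not pass the thresholds had 1 library or a pair of libraries far from the rest, and are given here as chosen after their values were seen. Elfn1, a postsynaptic partner of Grm7's receptor, had 90.1, 61.5 and 56.8 normalized CPM in control mice, 120 in OE B and 94.6 in OE C, but 2.62 in OE A, from 139 counts. In the same library Elfn2 was at 229, close to the other AP1AR-DT OE libraries. Glul, the astrocytic glutamine synthetase, had 1527 normalized CPM in control 1 and 1541 in OE A, and between 300 and 384 in the other 4 libraries, a difference that crosses the groups. Grm3 was highest in the same 2 libraries at 60.7 and 48.9, though OE B was close at 45.4. The mean log2 level of the astrocyte list was 0.022 in control 1 and -0.064 in OE A. It was highest in control 3, at 0.28. Striatal markers summed highest in control 1 and OE A, at 1399 and 2449 normalized CPM. Whether any of these levels are linked was not tested. Adcy1, a calcium-stimulated adenylyl cyclase, ranged from 106 in control 2 to 459 in control 3.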
